A study of Mus musculus with 10 samples.

Results

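The muscle ankyrin repeat genes Ankrd1, Ankrd2 and Ankrd23, the sarcomere genes Csrp3, Lmod2 and Nrap, and the matricellular genes Ctgf and Cyr61 are 8 genes linked to the response of muscle to mechanical load. These 8 members were chosen by name, with results of these arrays known, and in particular with the level of Ankrd1 in fibers that carried the shRNA against linc-MYH in view. They are 8 of the 19938 genes that had a probe set of their own on the Affymetrix Mouse Gene 1.0 ST array. The platform annotation lists Ctgf under its present symbol Ccn2 and Cyr61 under Ccn1. Each member had 1 probe set.

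Skeletal muscle RNA was measured on 10 arrays. In tibialis anterior (TA), 2 arrays held shlinc-MYH fibers, in which a plasmid expressed an shRNA against linc-MYH, a long noncoding RNA of fast fibers, and 2 arrays held fibers with the control vector, described in the methods as a plasmid for an shRNA against LacZ. In gastrocnemius, 3 arrays held muscle of cSix1 KO mice, a conditional knockout with an HSA-CRE transgene, and 3 held muscle of control mice labelled wild type. All mice were labelled C56BL6N and 8 weeks old. For TA, 10 µg of plasmid were electroporated and GFP-positive fibers were dissected 2 weeks later, so both TA groups had been electroporated and both were selected for fluorescence. In cSix1 KO mice the human skeletal actin promoter drives CRE, so that the deletion is made in muscle fibers and not in the other cells of the muscle. The gastrocnemius samples are labelled as muscle, and the methods describe no dissection of fibers for them. The paper names the tissue of these arrays as GP, gastrocnemius plantaris. The methods place the LacZ plasmid in the TA of the opposite leg and state that the electroporated muscles of a condition belonged to different mice; no source used here ties an array number to a mouse. For gastrocnemius no source used here states that the arrays of a group came from separate animals, so those errors measure a spread between arrays that may be technical. The probe sets of the targeted RNAs were not analysed here, so knockdown and deletion were not checked at their targets.

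Values are log2 signals after robust multi-array averaging (RMA), in which a difference of 1 is a 2-fold difference. The 4 TA arrays had median log2 signals between 5.09 and 5.14 and correlated with each other at r = 0.98 to 0.99. The 6 gastrocnemius arrays had medians between 6.60 and 6.67, with r = 0.99 for each pair. The tissues had different signal distributions, so no level was compared between them, and probe sets differ in affinity, so no gene's level was set against another's. Genes of fast fibers were bright on every array, with a mean log2 signal over 10 genes of 12.13 and 12.10 in shlinc-MYH fibers and 12.22 and 12.27 in control fibers of the TA, and between 13.18 and 13.37 in gastrocnemius. A gene is said to have passed the test where limma gave an adjusted p under 0.05 over all 19938 genes.

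Ankrd1, also known as CARP or MARP1, Ankrd2 and Ankrd23 encode the muscle ankyrin repeat proteins, which bind the I-band region of titin and can also enter the nucleus. Titin is the elastic filament of the sarcomere, and stretch, injury and denervation are known to raise the RNA of Ankrd1 in skeletal muscle. Csrp3 encodes muscle LIM protein, a Z-disc and nuclear protein of slow and loaded muscle; Lmod2 encodes leiomodin 2, which elongates thin filaments at their pointed ends; and Nrap encodes a scaffold of actin filament ends at the muscle-tendon junction. Ctgf and Cyr61 encode secreted matrix proteins and are standard targets of YAP and TAZ, the mechanosensitive coactivators that act through TEAD factors on a DNA element called the MCAT box.

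Upstream sequence was read from the RefSeq promoters of GRCm38.p6, which gave 9 entries for 7 of the 8 members. The 250 bases before each start site were searched on both strands. The MCAT box, CATTCC or its complement GGAATG, was found for 3 of the 7 members, Ankrd1, Ankrd23 and Cyr61, against 14.4% of 27025 genes with a promoter entry. The E-box, CANNTG, the element of the myogenic factors, was found for 6 of the 7 members against 69.3% of genes. The CArG box of SRF and the MEF2 box were found upstream of 0 of the 7 members, and of 1.62% and 3.42% of genes. These are matches of letters in a short window, not measured binding sites. The 3 upstream regions with an MCAT box are printed 5′ to 3′ on the strand of the gene, with the MCAT box in capitals. They lie at chr19:36119845-36120094 for Ankrd1, at chr1:36535740-36535989 for the second start site of Ankrd23 and at chr3:145649986-145650235 for Cyr61, all on the minus strand.
Ankrd1: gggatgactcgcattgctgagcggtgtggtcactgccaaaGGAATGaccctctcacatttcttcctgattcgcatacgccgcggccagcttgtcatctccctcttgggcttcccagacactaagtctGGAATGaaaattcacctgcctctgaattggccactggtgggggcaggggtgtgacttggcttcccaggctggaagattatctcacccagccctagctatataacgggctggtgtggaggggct
Ankrd23: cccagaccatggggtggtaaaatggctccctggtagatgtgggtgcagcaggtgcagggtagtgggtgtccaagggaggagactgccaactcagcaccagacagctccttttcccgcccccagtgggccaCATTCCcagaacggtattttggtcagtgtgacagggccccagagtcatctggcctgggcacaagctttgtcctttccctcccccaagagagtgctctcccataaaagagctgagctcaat
Cyr61: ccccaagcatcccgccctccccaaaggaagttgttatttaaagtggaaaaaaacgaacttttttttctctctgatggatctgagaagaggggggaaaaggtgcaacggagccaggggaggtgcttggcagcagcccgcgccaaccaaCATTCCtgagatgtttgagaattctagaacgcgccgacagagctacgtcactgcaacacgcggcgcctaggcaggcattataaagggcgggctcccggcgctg
Ankrd1 had 2 MCAT boxes, at bases -210 to -205 and -123 to -118 from the start site, followed by an E-box at -111 to -106. Ankrd23 had 1 MCAT box at -120 to -115 and Cyr61 had 1 at -103 to -98. The first start site of Ankrd23 had 0 MCAT boxes, and Ctgf had no promoter entry. A link between the box and the values below was not tested.

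In TA, Ankrd1 was the member that differed most between shlinc-MYH and control fibers. Its log2 signal was 10.72 and 11.01 in shlinc-MYH fibers, against 8.22 and 8.04 in control fibers. The lowest shlinc-MYH array lay 2.50 above the highest control array, whereas arrays of 1 group differed by at most 0.28. Means were 10.86 ± 0.20 in shlinc-MYH fibers and 8.13 ± 0.13 in control fibers (SD, n = 2 each), a log2 fold change of 2.73 with a standard error of 0.15 and a 95% confidence interval of 2.38 to 3.09. This is 6.65-fold, and the second highest log2 fold change of the 19938 genes was that of Ankrd1 (rank 2).

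The other muscle ankyrin repeat genes stood apart from Ankrd1 and from each other. Ankrd2, which is enriched in slow fibers, had log2 signals of 10.18 and 10.61 in shlinc-MYH fibers, against 9.70 and 9.49 in control fibers. The groups did not overlap, and the log2 fold change was 0.80 (standard error 0.18, 95% confidence interval 0.37 to 1.23), or 1.74-fold. Ankrd23, also called DARP, had log2 signals of 10.004 and 10.044 in shlinc-MYH fibers, against 10.12 and 10.36 in control fibers. Both shlinc-MYH arrays were the lower ones, by a log2 fold change of -0.22 whose interval, -0.54 to 0.11, includes 0. The 3 ankyrin repeat genes thus spanned log2 fold changes between -0.22 and 2.73.

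Among the sarcomere partners, Csrp3 and Lmod2 were higher on both shlinc-MYH arrays than on either control array. Csrp3 had log2 signals of 8.90 and 9.36 in shlinc-MYH fibers, against 8.24 and 8.40 in control fibers, a log2 fold change of 0.81 (standard error 0.18, 95% confidence interval 0.38 to 1.23). Lmod2 had log2 signals of 10.25 and 10.36 in shlinc-MYH fibers, against 9.90 and 9.41 in control fibers, a log2 fold change of 0.65 (standard error 0.18, 95% confidence interval 0.22 to 1.09). Its control arrays lay 0.49 apart, and without TA control replicate 2 the log2 fold change was 0.41. Nrap, the scaffold at the muscle end, overlapped between the groups, with log2 signals of 10.592 and 11.003 in shlinc-MYH fibers and 10.41 and 10.72 in control fibers. Its log2 fold change was 0.23, with a 95% confidence interval of -0.21 to 0.68.

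The matricellular genes did not move with Ankrd1 in TA. Ctgf had log2 signals of 7.23 and 6.64 in shlinc-MYH fibers, against 7.17 and 6.88 in control fibers, with a log2 fold change of -0.09 (95% confidence interval -0.62 to 0.43). Cyr61 had log2 signals of 7.97 and 7.68 in shlinc-MYH fibers, against 7.87 and 7.84 in control fibers, with a log2 fold change of -0.03 (95% confidence interval -0.37 to 0.31). For both genes the first shlinc-MYH array was the highest and the second the lowest of the 4.

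Of the 8 members, 1 passed the test in TA, Ankrd1, against 0.015% of all genes (3 genes, all higher). Without any 1 of the 4 arrays, 0 members passed, and the log2 fold change of Ankrd1 was between 2.59 and 2.88. With groups that did not overlap, 4 members were higher in shlinc-MYH fibers (Ankrd1, Ankrd2, Csrp3 and Lmod2) against 16.3% of all genes, and 1 was lower (Ankrd23) against 23.0%. Because the members were selected on this contrast, nothing is read from these counts. The median log2 fold change of all genes in TA was -0.03, and 1.84% of genes had a log2 fold change of at least 0.5, as did 4 of the 8 members. For the same reason, nothing is read from this count either.

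**Figure D1:**
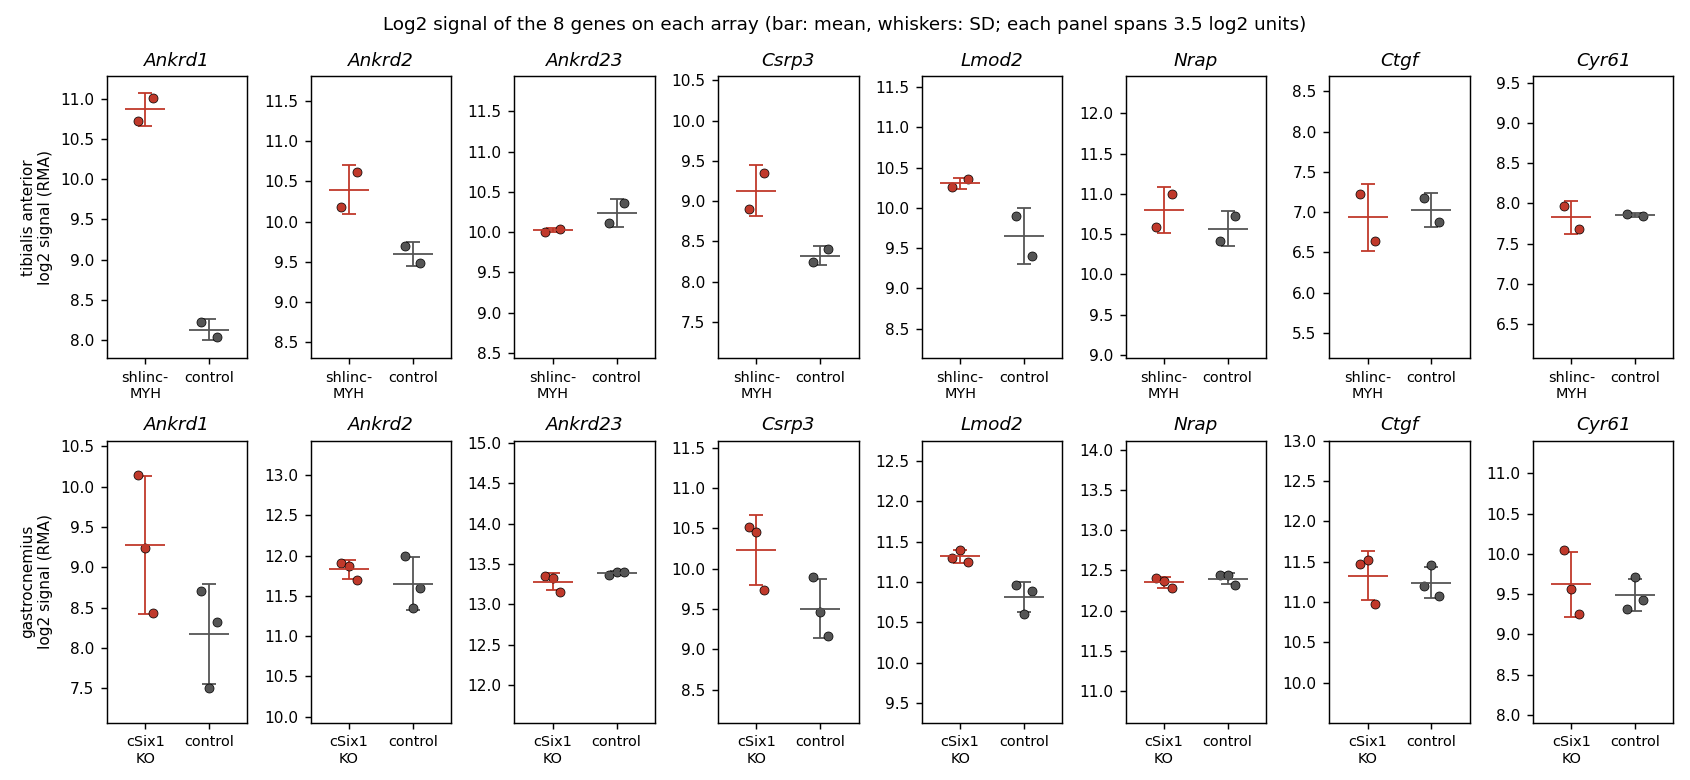
Log2 signal of each of the 8 members on each array, with TA in the upper row (shlinc-MYH left, control right) and gastrocnemius in the lower row (cSix1 KO left, control right); points are arrays, horizontal bars means and whiskers SD. Ankrd1 in TA lies at 10.72 and 11.01 in shlinc-MYH fibers and at 8.22 and 8.04 in control fibers, and in gastrocnemius its groups overlap.

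In gastrocnemius, Ankrd1 again had the highest log2 fold change of the 8 members, but it varied widely between arrays of one group. Ankrd1 had log2 signals of 10.14, 9.24 and 8.44 in cSix1 KO muscle, against 8.70, 7.50 and 8.32 in control muscle. The third cSix1 KO array lay below the first control array, so the groups overlapped. Means were 9.27 ± 0.85 in cSix1 KO muscle and 8.17 ± 0.62 in control muscle (SD, n = 3 each), a log2 fold change of 1.10 with a standard error of 0.44 and a 95% confidence interval of 0.09 to 2.11. The value rested on single arrays. It was 0.67 without cSix1 KO replicate 1, 0.76 without control replicate 2 and 1.52 without cSix1 KO replicate 3.

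Lmod2 and Csrp3 were the other members with intervals above 0. Lmod2 had log2 signals of 11.30, 11.40 and 11.25 in cSix1 KO muscle, against 10.96, 10.60 and 10.89 in control muscle. Its groups did not overlap, and its log2 fold change was 0.50 (standard error 0.10, 95% confidence interval 0.27 to 0.74), or 1.42-fold. Csrp3 had log2 signals of 10.52, 10.46 and 9.73 in cSix1 KO muscle, against 9.89, 9.46 and 9.16 in control muscle. The third cSix1 KO array fell inside the range of the control arrays, and the log2 fold change was 0.73 (standard error 0.24, 95% confidence interval 0.17 to 1.29).

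The remaining members differed little in gastrocnemius. Ankrd2 had log2 signals of 11.91, 11.87 and 11.70 in cSix1 KO muscle, against 12.00, 11.35 and 11.59 in control muscle, a log2 fold change of 0.18 (95% confidence interval -0.18 to 0.54). Without control replicate 2, its lowest array, the log2 fold change was 0.03. Ankrd23 had log2 signals of 13.35, 13.33 and 13.16 in cSix1 KO muscle, against 13.37, 13.40 and 13.40 in control muscle. Every cSix1 KO array was below every control array, by a gap of 0.02, and the log2 fold change was -0.11 (95% confidence interval -0.28 to 0.06). Nrap had a log2 fold change of -0.05 (95% confidence interval -0.21 to 0.12), Ctgf 0.08 (-0.28 to 0.45) and Cyr61 0.13 (-0.31 to 0.58), and each overlapped between the groups.

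Of the 8 members, 0 passed the test in gastrocnemius, against 0.908% of all genes higher and 0.833% lower in cSix1 KO muscle (181 and 166 of 19938 genes). At an unadjusted p under 0.05, limma counted 2979 genes. Centring each array on its median turned the counts to 142 higher and 247 lower. With groups that did not overlap, 1 member was higher (Lmod2) against 11.0% of genes, and 1 was lower (Ankrd23) against 9.85%. These counts describe members selected on these arrays, and nothing is read from them.

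**Figure D2:**
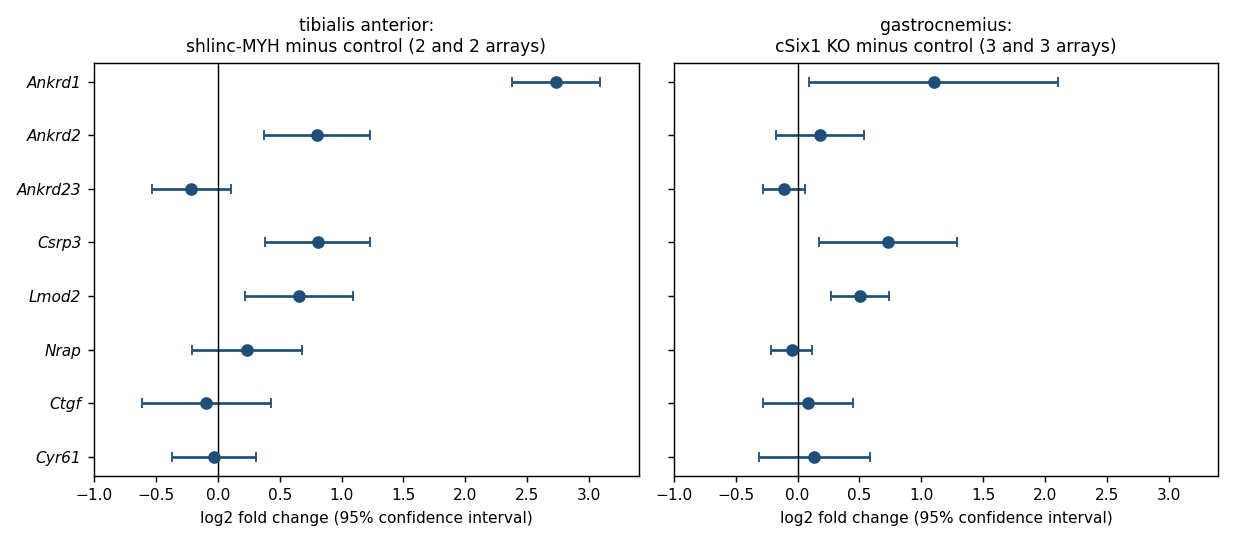
Log2 fold change of each member (points) with its 95% confidence interval (lines), shlinc-MYH minus control in TA on the left and cSix1 KO minus control in gastrocnemius on the right. Ankrd1 is at 2.73 (2.38 to 3.09) in TA and at 1.10 (0.09 to 2.11) in gastrocnemius; the intervals of Nrap, Ankrd23, Ctgf and Cyr61 include 0 on both sides.

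Set side by side, the log2 fold changes of TA and gastrocnemius were 2.73 and 1.10 for Ankrd1, a difference of 1.63 (standard error 0.60, 95% confidence interval 0.30 to 2.96). They were 0.80 and 0.18 for Ankrd2, a difference of 0.62 (0.05 to 1.19). For Csrp3 they were 0.81 and 0.73, a difference of 0.08 whose interval, -0.71 to 0.87, leaves room for a large difference either way. For Lmod2 they were 0.65 and 0.50, a difference of 0.15 (-0.30 to 0.61). For the other 4 members the difference was between -0.18 and 0.28, with intervals that include 0. These intervals are for single genes and are not adjusted, and over all genes the limma test of the difference called 0 of the 8 members. The comparisons differ in tissue, in agent and in sampling (dissected fibers, or muscle with no dissection of fibers described), which cannot be told apart here.

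The spread between arrays of one group was described as well. The members were chosen with results of these arrays known, so their ranks by spread are a description. In gastrocnemius the SD within groups was 0.75 for Ankrd1, against a median of 0.10 over all genes, which placed it at rank 27 of the 19938 genes from the widest. The SD within groups was 0.40 for Csrp3 (rank 207), 0.32 for Cyr61 (rank 439), 0.25 for Ctgf and 0.25 for Ankrd2, all wider than in at least 95.1% of genes. Lmod2, at 0.14, lay nearer to the middle, and Ankrd23 and Nrap, at 0.08 and 0.07, were below the median. In TA the order was different. The SD within groups was 0.17 for Ankrd1, wider than in 67.6% of genes, and 0.33 for Ctgf, wider than in 94.6%, against a median of 0.13 over all genes.

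**Figure D3:**
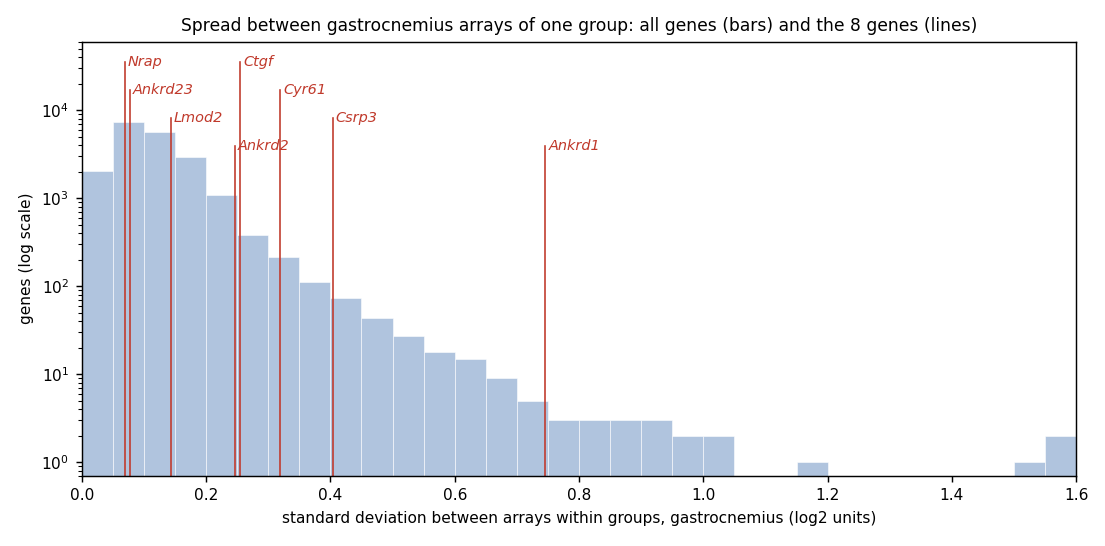
Histogram of the SD between gastrocnemius arrays within groups for all genes (bars, log-scaled count), with the 8 members as vertical lines whose height has no meaning; 4 genes above 1.6 are outside the plot. Ankrd1 is at 0.75, Csrp3 at 0.40 and Cyr61 at 0.32, while Nrap at 0.07 and Ankrd23 at 0.08 are below the median of 0.10.

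The arrays on which Ankrd1 was high were in part those on which its relatives were high. Relative to the mean of the control arrays, Ankrd1 was 1.97, 1.07 and 0.26 higher on the 3 cSix1 KO arrays, and Csrp3 was 1.01, 0.95 and 0.23 higher on the same arrays. Lmod2 did not grade in that way, at 0.48, 0.58 and 0.44. On the first control array Ankrd1, Ankrd2, Csrp3 and Lmod2 were all above the control mean, by 0.53, 0.35, 0.39 and 0.14. On the second, the same genes were all below it, at -0.68, -0.30, -0.04 and -0.21. On the control array numbered 3, Ankrd1 was 0.15 and Lmod2 0.07 above the control mean, while Csrp3 was at -0.34 and Ankrd2 at -0.05. Cyr61 stood at 0.57, 0.07 and -0.23 on the cSix1 KO arrays, the same order as Ankrd1, and at -0.17, 0.22 and -0.06 on the control arrays, where Ankrd1 was lowest on the array on which Cyr61 was highest. Ctgf stood at 0.23, 0.29 and -0.26 on the cSix1 KO arrays and at -0.04, 0.21 and -0.17 on the control arrays. Over the 6 gastrocnemius arrays, the Pearson correlation with Ankrd1 was 0.85 for Csrp3, 0.80 for Lmod2, 0.79 for Ankrd2, 0.50 for Cyr61, 0.35 for Ctgf, 0.06 for Nrap and -0.10 for Ankrd23. These values describe 6 arrays that share the group difference, and Ctgf and Cyr61 correlated with each other at 0.76.

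**Figure D4:**
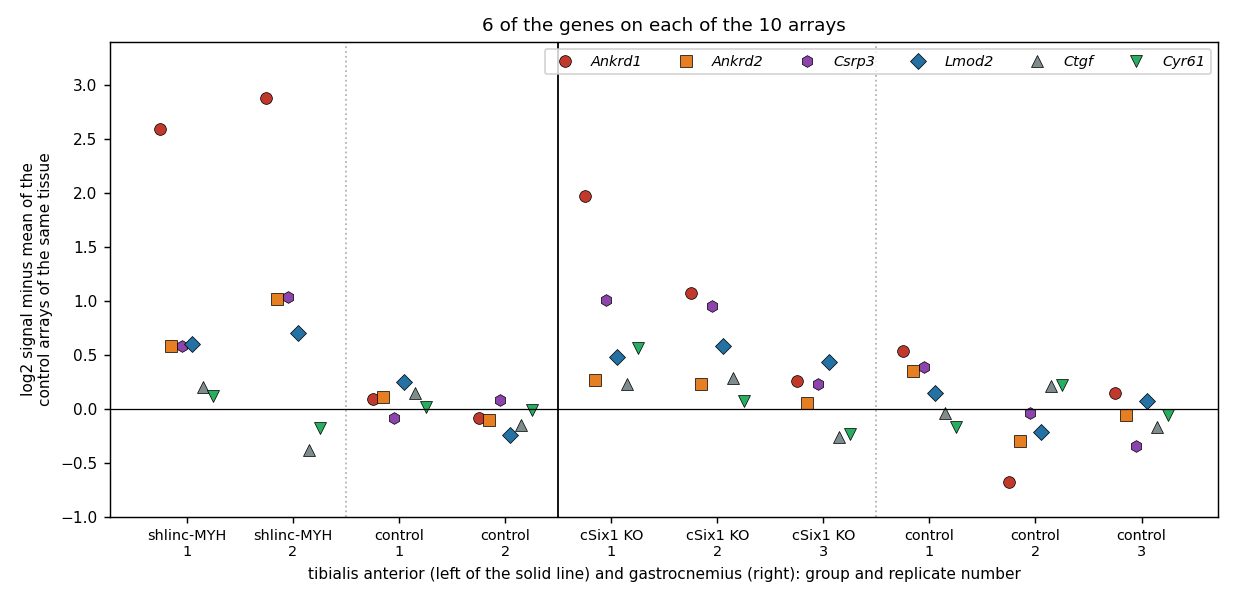
Log2 signal minus the mean of the control arrays of the same tissue (vertical axis) for 6 members on each of the 10 arrays (horizontal axis), with TA left of the solid line and gastrocnemius right of it. Ankrd1 stands at 1.97, 1.07 and 0.26 on the cSix1 KO arrays, and Csrp3 at 1.01, 0.95 and 0.23.

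Over all 10 arrays, after subtraction of the control mean of each tissue, the genes most like Ankrd1 among 17098 named genes were Ttll12 (r = 0.99), Vps33b (r = 0.99), Llph (r = 0.98), Thoc5 (r = 0.98) and Myl12a (r = 0.97), and the least like it were Jsrp1 (r = -0.98), Atpaf1 (r = -0.97) and Pdk2 (r = -0.97). Myl12a, a regulatory light chain of nonmuscle myosin, had log2 signals of 10.49 and 10.47 in shlinc-MYH fibers, against 9.88 and 9.80 in control fibers. Its log2 signals were 11.16, 11.10 and 10.86 in cSix1 KO muscle, against 10.81, 10.68 and 10.71 in control muscle. Jsrp1, a protein of the junctional sarcoplasmic reticulum, had log2 signals of 7.05 and 7.05 in shlinc-MYH fibers, against 7.24 and 7.31 in control fibers. Ankrd2 ranked 111 in this order with r = 0.91, Lmod2 ranked 372 with 0.84 and Csrp3 ranked 524 with 0.81, whereas Ankrd23 had r = -0.58. These correlations mix the group differences with the spread inside groups and carry no test.

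Besides Ankrd1, the genes that passed the test in TA were Zdbf2, an imprinted gene, and Nrk, a Nik-related kinase. Zdbf2 had log2 signals of 8.72 and 8.47 in shlinc-MYH fibers, against 6.18 and 5.86 in control fibers (log2 fold change 2.58, limma adjusted p = 0.0165). In cSix1 KO muscle Zdbf2 rose as well, with log2 signals of 9.139, 9.003 and 7.759, against 6.70, 6.40 and 6.60 in control muscle (log2 fold change 2.07, adjusted p = 0.025), and the third cSix1 KO array was again the lowest of its group. Nrk had log2 signals of 6.04 and 5.86 in shlinc-MYH fibers, against 3.83 and 3.89 in control fibers (log2 fold change 2.09, adjusted p = 0.0165). In cSix1 KO muscle its log2 fold change was 0.20 (adjusted p = 0.445). Without any 1 of the 4 TA arrays, 0 genes passed in TA, so that the calls of Zdbf2 and Nrk there were lost as well.

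The wider families of the members were described from lists of genes chosen with earlier results of these arrays known. In TA, 0 of the 154 gene entries on 12 pathway lists other than the members passed the limma test, against 0.015% of all genes (3 genes). In gastrocnemius 19 were higher and 2 were lower, against 0.908% and 0.833% of all genes. With 3 genes past the test in TA, 0 entries there, or on a single list below, does not set the tissues apart. At an unadjusted p under 0.05 limma counted 38 of these entries in TA and 70 in gastrocnemius, and 11 and 16 of the 42 entries on the 6 cell type marker lists, beside 8.65% of all genes in TA and 14.9% in gastrocnemius. Of 22 titin and Z-disc partners, 1 passed the test in gastrocnemius: Tcap, or telethonin, which caps titin at the Z-disc, fell, with log2 signals of 11.53, 11.47 and 11.59 in cSix1 KO muscle, against 11.96, 11.94 and 11.85 in control muscle (log2 fold change -0.38, adjusted p = 0.0389). The median log2 fold change of the list was -0.06, beside 0.01 over all genes. In TA its median was -0.0005, beside -0.03 over all genes, with single genes well above it. Xirp1, an actin-binding protein of injured and remodelling muscle, had log2 signals of 7.68 and 8.20 in shlinc-MYH fibers, against 6.71 and 6.74 in control fibers (log2 fold change 1.21, adjusted p = 0.225). Myoz2, the calsarcin of slow fibers, had a log2 fold change of 0.97 in TA (adjusted p = 0.393) and of 0.41 in gastrocnemius (adjusted p = 0.0751).

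Of 12 other muscle LIM proteins, 2 rose in gastrocnemius. Fhl2, a LIM-only coregulator of cardiac and slow muscle, had log2 signals of 7.91, 7.74 and 7.79 in cSix1 KO muscle, against 7.12, 7.03 and 7.29 in control muscle (log2 fold change 0.67, adjusted p = 0.0143). Pdlim1, which binds alpha-actinin, had 10.69, 10.80 and 10.81 in cSix1 KO muscle, against 10.29, 10.17 and 10.22 in control muscle (log2 fold change 0.54, adjusted p = 0.0136). In TA, Lims1, an integrin-linked adaptor, had the highest value of the list, a log2 fold change of 0.82 (adjusted p = 0.412). Among 11 thin filament genes 0 passed in either tissue. Klhl40, which stabilises nebulin and leiomodin 3, had log2 signals of 7.80 and 7.93 in shlinc-MYH fibers, against 6.81 and 6.76 in control fibers (log2 fold change 1.08, adjusted p = 0.114).

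The YAP and TAZ, Hippo and SRF lists hold 49 genes, of pathways known to control members of the set. In TA 0 of the 49 passed the test, against 0.015% of all genes. In gastrocnemius 3 (6.12%) passed, against 1.74% of all genes. Of 19 other YAP and TAZ targets, 1 rose in gastrocnemius: Gadd45a, a growth arrest gene that denervation also induces, had 10.05, 9.78 and 9.64 in cSix1 KO muscle, against 8.92, 8.59 and 8.79 in control muscle (log2 fold change 1.06, adjusted p = 0.00954). In TA its log2 fold change was 0.74 (adjusted p = 0.306). The medians of the list were -0.05 in TA and 0.02 in gastrocnemius. Of 17 Hippo pathway genes, Tead4, a TEAD factor of regenerating muscle, rose in gastrocnemius, with 8.75, 8.74 and 8.33 in cSix1 KO muscle, against 8.04, 7.80 and 8.00 in control muscle (log2 fold change 0.66, adjusted p = 0.0476). Nf2, an upstream activator of the kinases, fell by 0.36 on the log2 scale (adjusted p = 0.0404). In TA, Tead4 had log2 signals of 7.13 and 7.43 in shlinc-MYH fibers, against 6.76 and 6.72 in control fibers (log2 fold change 0.54, adjusted p = 0.471). Among 13 SRF and MRTF genes 0 passed in either tissue, and the medians were -0.20 in TA (0.01 without control replicate 1) and -0.11 in gastrocnemius. Among 10 CCN and matricellular relatives of Ctgf and Cyr61 0 passed in either tissue, with medians of -0.04 in TA and 0.30 in gastrocnemius. Log2 fold changes were above 0 for 4 of the 10 in TA and for 9 in gastrocnemius. There 3 were higher without overlap, against 11.0% of all genes. The highest was Postn, periostin, with a log2 fold change of 1.10 in gastrocnemius (adjusted p = 0.0888).

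**Figure D5:**
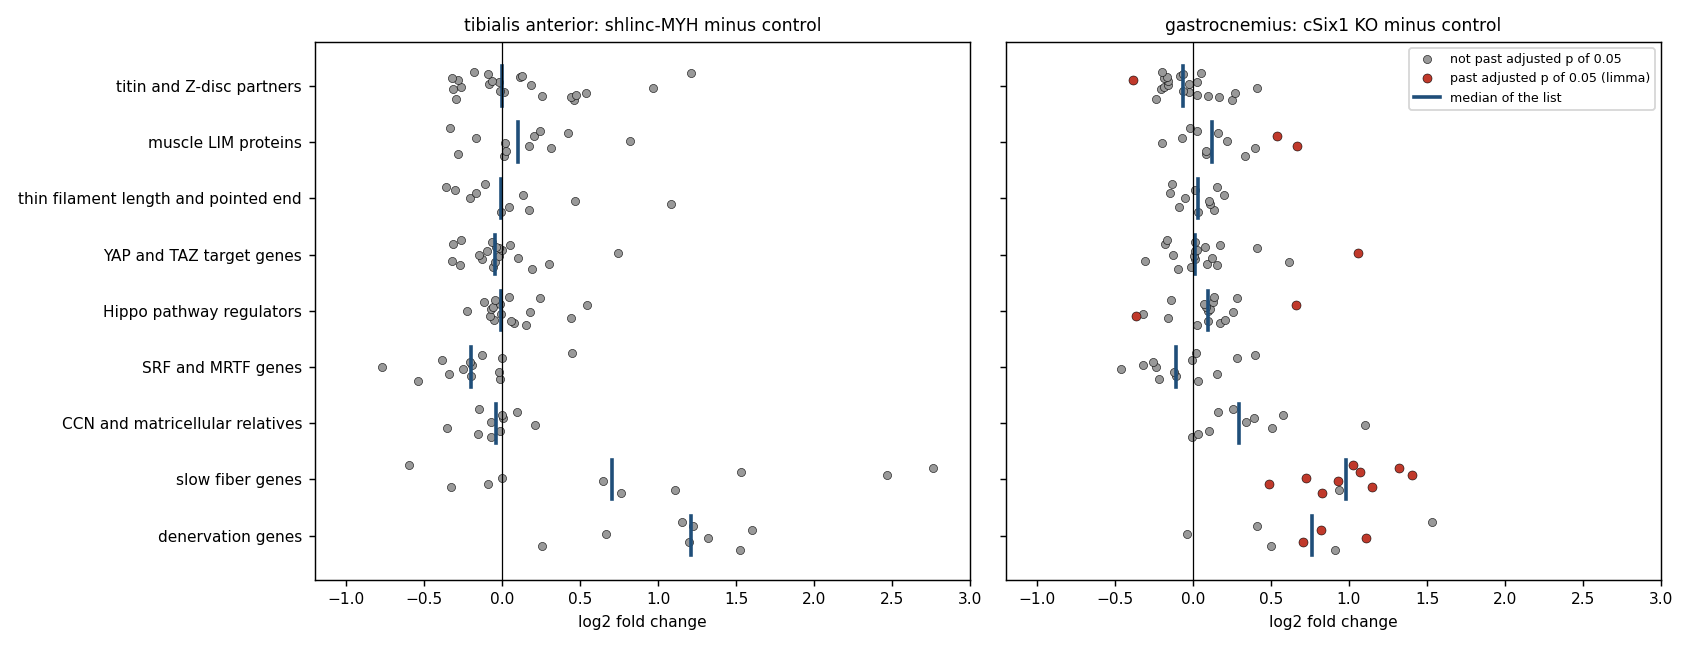
Log2 fold change (horizontal axis) of every measured gene on 9 of the lists (vertical axis), shlinc-MYH minus control in TA on the left and cSix1 KO minus control in gastrocnemius on the right; red points passed the limma test, grey points did not, and blue bars are list medians. The YAP and TAZ targets have medians of -0.05 in TA and 0.02 in gastrocnemius, and the slow fiber genes medians of 0.70 and 0.98.

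Genes of slow fibers, and some genes of denervated muscle, rose in cSix1 KO muscle. Some genes of both lists were also higher in shlinc-MYH fibers, where 0 passed the test. The part of both lists in the level of Ankrd1 was not tested. Of 10 slow fiber genes, 9 rose in cSix1 KO muscle, among them Myh7, the slow myosin heavy chain (log2 fold change 1.15, adjusted p = 0.0069), and Tnnc1, slow troponin C (1.40, adjusted p = 0.00596). In TA 0 of the 10 passed, with a median log2 fold change of 0.70, which was 0.33 without control replicate 2 and 1.23 without control replicate 1. Without overlap, 5 of the 10 were higher in shlinc-MYH fibers, against 16.3% of all genes, and 10 in cSix1 KO muscle, against 11.0%. By array, the median deviation of the slow fiber genes from the control mean was 0.54 and 0.97 in shlinc-MYH fibers, against 0.44 and -0.44 in control fibers. Single genes of the list lay far from that median on either side. Tnnt1, slow troponin T, had log2 signals of 10.075 and 9.455 in shlinc-MYH fibers, against 8.011 and 5.997 in control fibers. Myh7 was not higher there, with 5.020 and 4.979 in shlinc-MYH fibers, against 5.675 and 4.978 in control fibers. Log2 fold changes in TA were above 0 for 7 of the 10, and the lowest was -0.59, for Tpm3. In gastrocnemius the same measure was 1.02, 1.19 and 0.80 in cSix1 KO muscle, against 0.14, -0.26 and 0.11 in control muscle. Of 8 denervation genes, 3 rose in cSix1 KO muscle, namely Chrng and Chrnd, subunits of the acetylcholine receptor, and Myog, a myogenic factor. Their list had a median deviation of 1.06, 0.69 and 0.45 on the 3 cSix1 KO arrays, the same order as Ankrd1, and of 0.04, -0.24 and 0.22 on the control arrays. In TA it was 1.35 and 1.15 in shlinc-MYH fibers, against 0.35 and -0.35 in control fibers, with 0 of 8 genes past the test. There 7 of the 8 were higher without overlap, against 16.3% of all genes, and in gastrocnemius 6 were, against 11.0%. Of 8 embryonic and cardiac sarcomere isoforms, 3 rose in cSix1 KO muscle (Myh6, Myh8 and Tnnt2) and 0 passed in TA. Their median log2 fold changes were 0.64 in gastrocnemius and 0.80 in TA, where 4 of the 8 lay above 0. These were Tnnt2 at 1.89, Myh3 at 1.81, Myl4 at 1.72 and Myh8 at 1.61. Myh6 was at -0.16 in TA, and the lowest of the list was at -0.26 there and at -0.55 in gastrocnemius. Of 10 fast fiber genes 0 passed in either tissue, with median log2 fold changes of -0.08 in TA and -0.13 in gastrocnemius. Without overlap, 3 of these were lower in shlinc-MYH fibers, against 23.0% of all genes. In cSix1 KO muscle 8 were lower without overlap, against 9.85%, and 1 was higher, against 11.0%. Among 14 early response genes, a class induced within minutes of a stimulus, 0 passed in either tissue. Their median deviation was 0.52, 0.36 and -0.07 in cSix1 KO muscle, against 0.05, 0.19 and -0.27 in control muscle, lowest in each group on the array numbered 3.

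Markers of other cells also differed, and their part in the members' values was not tested. In such bulk samples, fewer cells of a type and less RNA per cell cannot be told apart. Of 8 endothelial markers in TA, 7 were lower on both shlinc-MYH arrays than on both control arrays, against 23.0% of all genes, with 0 past the test and mean log2 signals over the list of 6.15 and 6.73 in shlinc-MYH fibers, against 7.06 and 7.06 in control fibers. Pecam1, the endothelial adhesion molecule, had a log2 fold change of -0.83 (adjusted p = 0.446). Of 6 smooth muscle and pericyte markers 0 passed in either tissue, with median log2 fold changes of -0.39 in TA and 0.04 in gastrocnemius. Log2 fold changes in TA were above 0 for 0 of the 6, and 3 were lower without overlap, against 23.0% of all genes. Of 8 macrophage markers in gastrocnemius, Mrc1, the mannose receptor, rose (log2 fold change 0.77, adjusted p = 0.0139), and 7 were higher on every cSix1 KO array than on any control array, against 11.0% of all genes. Their mean log2 signal was 9.27, 8.68 and 8.62 in cSix1 KO muscle, against 8.34, 8.13 and 8.36 in control muscle, highest on the array on which Ankrd1 was highest. Fibroblast markers, of which 0 of 8 passed, had median log2 fold changes of 0.04 in TA and 0.32 in gastrocnemius. Of 6 satellite cell markers, Mymk, myomaker, rose in cSix1 KO muscle (log2 fold change 0.76, adjusted p = 0.0139). Its log2 fold change in TA was 1.08 (limma adjusted p = 0.431). Without overlap, 4 of the 6 were higher in shlinc-MYH fibers, against 16.3% of all genes, and 3 in cSix1 KO muscle, against 11.0%. Of 6 tendon markers 0 passed. Scx, scleraxis, a tendon transcription factor, had log2 signals of 7.25 and 7.11 in shlinc-MYH fibers, against 5.90 and 5.82 in control fibers (log2 fold change 1.32, adjusted p = 0.0579), while the median of that list in TA was -0.01.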

How the data were processed

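The authors deposited log2 signals, 1 per probe set and array, for 35556 probe sets with 0 missing values; the processing notes name RMA and Partek, and their versions and the annotation release are not given in the labels or methods. RMA removes any shift shared by all genes. The sources differ on RNA amount and amplification kit and on the age of the TA mice at sampling. Arrays give no read depth, and their number, 2 or 3 a group, limits the precision. Of the probe sets, 21789 had 1 symbol in the platform annotation, 1621 several and 12146 none; only the first were used, with the brightest probe set of each of 19938 genes.

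The members and lists were chosen with earlier results of these data known. Within each tissue, groups were compared by lmFit and eBayes (limma 3.58.1, R 4.3.3) with Benjamini-Hochberg adjustment over all genes and no replicate block; the difference between the comparisons came from 1 fit over 10 arrays. The script was tested on simulated data. Tables and figures used Python 3.11.15, pandas 2.3.3 and matplotlib 3.10.9. The text names all members, list genes past the test or with the largest absolute moderated t, the genes most and least like Ankrd1, and genes past the test in TA. Alternatives were quantile normalization, median centring, leaving out dim genes, averaging probe sets, 1 fit of all arrays, an intensity trend with robust prior, array weights, a replicate block, the methods' t-test and leaving out each array.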

Additional observations from a re-analysis of the deposited data

How the results depend on the processing

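In TA, 1 member passed the limma test as reported. By the methods' t-test 0 passed, and leaving out each array gave 0 to 0. In gastrocnemius 0 passed as reported, and 1 passed with quantile normalization, with an intensity trend and robust prior, with array weights and with dim genes left out (Lmod2 each time); leaving out each array gave 0 to 1 (Csrp3, without cSix1 KO replicate 3). Replicate numbers are shared between groups, and the methods describe the control plasmid in the opposite leg, but no source ties a number to an animal. With the replicate block 1 member passed in gastrocnemius (Csrp3, adjusted p = 0.0462), and calls over all genes became 5 in TA and 119 higher and 67 lower in gastrocnemius; deviations of same-numbered arrays correlated at 0.185 in TA and at 0.216, -0.137 and 0.084 in gastrocnemius, and not every gastrocnemius array correlated best with its own number. Cyr61 in TA turned to 0.000758 with median centring. Leaving out each array gave ranges that include both signs for Ctgf, -0.39 to 0.20 in TA and -0.0165 to 0.258 in gastrocnemius, and for Cyr61, -0.18 to 0.11 in TA and -0.0810 to 0.319 in gastrocnemius. So did the difference of TA minus gastrocnemius for Csrp3 (-0.17 to 0.30), Ankrd23 (-0.224 to 0.0187), Lmod2 (-0.0928 to 0.398), Ctgf (-0.47 to 0.12) and Cyr61 (-0.350 to 0.0501). Other counts over all genes that moved by more than 1.5 times were, in TA, 10 with median centring, 105 higher and 26 lower with all 10 arrays in 1 fit, 0 by the methods' t-test and 0 without any 1 of the 4 arrays; and in gastrocnemius 261 higher and 282 lower with an intensity trend, 564 and 425 with array weights and 3 and 1 by the methods' t-test. Without 1 array, gastrocnemius calls lay between 32 higher and 19 lower (without cSix1 KO replicate 2) and 351 higher and 209 lower (without cSix1 KO replicate 3). Calls of the difference, 29 as reported, were 21 higher and 27 lower with an intensity trend, and lay between 1 higher and 5 lower (without cSix1 KO replicate 2) and 61 higher and 39 lower (without TA control replicate 2). Without 1 array, several list medians in TA moved: slow fiber genes lay between 0.33 and 1.23, endothelial markers between -1.08 and -0.28, YAP and TAZ targets between -0.17 and 0.03, SRF and MRTF genes between -0.26 and 0.01 and matricellular relatives between -0.20 and 0.11. The cause was not tested. The direction of Ankrd1, Ankrd2, Csrp3 and Lmod2 did not turn under any of these settings in either tissue.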
